A study of Mus musculus with 8 samples.

Results

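The lysosome genes described here were the 121 genes of the deposited expression table whose pathway annotation held the KEGG lysosome map (map04142) and did not hold the oxidative phosphorylation map (map00190), out of 55801 genes in the table. The second condition left out 10 genes, among them subunits of the proton pump that acidifies the lysosome. This rule uses no expression value, though the gene set was picked with earlier results of these data known. For the description they were sorted into 9 role classes, from the enzymes of the lumen to the coat proteins that deliver them. Expression was tested for 106 members, whose level averaged at least 1 TPM over the 8 samples, where TPM is a transcript level scaled for gene length and for the total of its sample. The other 15 were too low, and 9 of these (Hyal4, Hyal5, Hyal6, Spam1, Ctsg, Psapl1, Ctsj, Ap3b2 and Ctsm) were listed at 0 in all samples.

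The lysosome is the acidic compartment in which cells degrade what they take up and what they recycle. Hydrolases made in the endoplasmic reticulum receive a mannose 6-phosphate tag, are recognised by sorting receptors in the Golgi, and travel in clathrin-coated carriers to the endosome and lysosome, where proteases, glycosidases, sulfatases, lipases and nucleases work side by side and transporters export the products. Macrophages are rich in lysosomes, which they use to digest engulfed microbes and dead cells, and the transcription factors of the MiT/TFE family, among them TFEB, bind an E-box sequence in many lysosomal promoters.

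Peritoneal macrophages were elicited with thioglycollate in male C57BL/6 mice 6 to 8 weeks old and placed in 4 groups of 2 samples. The NC group received the vehicle. The LPS group received bacterial lipopolysaccharide, the ligand of Toll-like receptor 4, at 100 ng/ml for 4 h. The C498 group received the small molecule C498 (C498-0670) at 15 μM, and the C498_LPS group received C498 at 15 μM for 0.5 h before LPS at 100 ng/ml for 4 h. All groups shared the vehicle and the elicitation. The sources used here do not say whether the samples of a group came from separate animals or cultures, so each p-value measures the spread between these samples, which may be technical. The 4 comparisons asked what LPS did without and with C498, and what C498 did without and with LPS, and an interaction term asked whether the LPS response differed between the vehicle and C498.

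Facts of the whole table bear on every comparison. TPM values of each sample sum to the same total by construction and read depth is unknown, so every level is relative to the other transcripts of its sample. Over the 12189 tested genes the median log2(TPM + 1) was 4.03 and 3.71 in the NC samples and between 3.65 and 4.00 in the other 6 samples, so the vehicle samples differed from each other as much as the groups did. Replicates correlated with Pearson's r of 0.962 to 0.981 across genes. The macrophage markers were abundant in all samples, and their sum over 7 genes ranged from 17240 to 17520 TPM in NC, 14030 to 14810 in LPS, 12500 to 12590 in C498 and 8429 to 10000 in C498_LPS. The fibroblast sum over 6 genes was 150.3 to 192.4 TPM in NC and 175.9 to 200.5 in LPS, against 633.1 to 750 in C498 and 618.1 to 910.8 in C498_LPS. In bulk RNA, fewer cells of a type and less RNA per cell cannot be told apart.

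Lysosome genes were among the most abundant messages of these cells. The median tested member had a mean level of 63.1 TPM, against 13.9 for all tested genes. Of the members, 45 exceeded 100 TPM, and 10 stood among the 100 most abundant genes of the table. The aspartic protease Ctsd led with a mean of 9681 TPM and rank 5 of all genes. Psap, the precursor of the saposins that help lipid enzymes reach their substrates, had 8813 TPM. The cysteine proteases Ctss and Ctsb followed with 6872 and 6100 TPM, and with Ctsd and Psap they made up 51.6% of the summed level of the members. Next came Ctsz with 3234 TPM, the cholesterol carrier Npc2 with 3214, Ctsl with 2738, the macrophage glycoprotein Cd68 with 2608, the tetraspanin Cd63 with 2007 and the major lysosomal membrane protein Lamp1 with 1713. The other members spread down to Ctsf at 1.96 TPM, the lowest of those tested.

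The members together took a smaller part of the measured message after LPS. Their summed level was 69886 and 67702 TPM in the NC samples, 56875 and 55694 in LPS, 66625 and 66867 in C498, and 54778 and 49317 in C498_LPS. Both LPS samples lay below both NC samples, with a ratio of the means of 0.818, and both C498_LPS samples lay below both C498 samples, with a ratio of 0.780. The C498 samples lay just below the NC samples (ratio 0.970), and the C498_LPS samples lay below the LPS samples (ratio 0.925). On the log2 scale that last difference was -0.11, and it was -0.039 without C498_LPS replicate 2 and -0.19 without C498_LPS replicate 1. With 2 samples against 2 the exact two-sided permutation p was 0.333 in each case, the smallest this design allows. Taken relative to the median level of the tested genes, the log2 differences of the sum went from -0.29 to -0.12 in LPS against NC, from -0.36 to -0.13 in C498_LPS against C498, from -0.044 to -0.18 in C498 against NC and from -0.11 to -0.20 in C498_LPS against LPS.

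**Figure D1:**
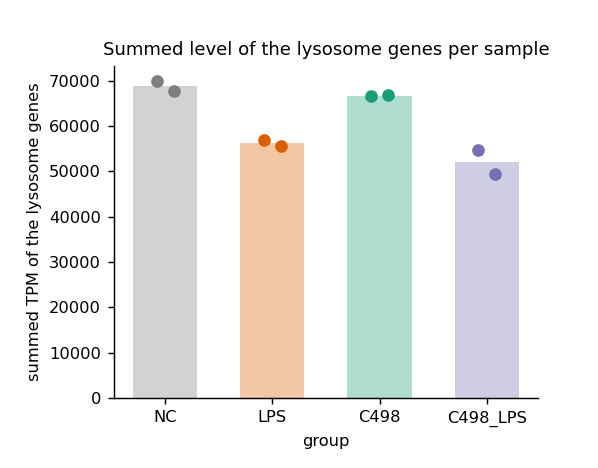
Summed level of the 121 lysosome genes, in TPM, for each sample (points) with the group mean (bars), in NC, LPS, C498 and C498_LPS. Both samples of each LPS-treated group, from 49317 to 56875 TPM, lie below all 4 samples without LPS, from 66625 to 69886 TPM.

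The promoters of the lysosome genes were searched for the E-box CACGTG and for its longer form TCACGTGA, which contains it and lies inside the element described for the MiT/TFE factors. Both are palindromes and read the same on both strands. RefSeq windows (GRCm38.p6) from 250 bases before to 50 bases after the start of transcription were matched by symbol to 97 of the 121 members. The E-box was in a window of 22 members, or 22.7%, and in a window of 8.09% of the 27025 genes of the RefSeq table. TCACGTGA was in 9 members, or 9.28%, against 1.12% of all genes. By class, the E-box was found in 3 of 4 matched genes of mannose 6-phosphate tagging and sorting, 3 of 6 sulfatase genes, 5 of 11 protease genes, 4 of 15 glycosidase genes, 2 of 8 transporter genes, 1 of 4 nuclease and phosphatase genes, 2 of 9 membrane glycoprotein genes, 2 of 20 coat genes and 0 of 7 lipid enzyme genes. It was in 31.6% of the 38 matched members that fell with LPS and in 21.7% of the 46 that did not pass the test, and TCACGTGA was in 10.5% and 10.9% of them. A match is a run of letters and does not show that a factor binds there.

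The stretches that follow show the 110 bases before the start, and for Gla a stretch of the same length further upstream, with the E-box or its longer form in capitals. They were chosen because their genes carry the results described next (Sgsh, Nagpa, Gla, Lgmn and Ctsd) or mark the organelle itself (the membrane protein Lamp1, the sorting receptor Igf2r and the calcium channel Mcoln1). Lamp1 held 4 E-boxes within this stretch, the others 1 or a pair.
Sgsh, chr11:119355511-119355620, minus strand: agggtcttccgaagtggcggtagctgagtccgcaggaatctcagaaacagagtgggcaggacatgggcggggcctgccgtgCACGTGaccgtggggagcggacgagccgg
Nagpa, chr16:5204013-5204122, minus strand: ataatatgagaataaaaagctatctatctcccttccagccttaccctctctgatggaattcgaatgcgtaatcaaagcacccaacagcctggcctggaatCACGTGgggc
Ctsd, chr7:142387828-142387937, minus strand: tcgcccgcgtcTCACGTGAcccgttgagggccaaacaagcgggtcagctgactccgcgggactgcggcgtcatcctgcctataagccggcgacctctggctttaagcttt
Lgmn, chr12:102439093-102439202, minus strand: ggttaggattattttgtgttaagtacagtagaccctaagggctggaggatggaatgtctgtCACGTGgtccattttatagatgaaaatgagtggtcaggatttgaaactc
Lamp1, chr8:13159051-13159160, plus strand: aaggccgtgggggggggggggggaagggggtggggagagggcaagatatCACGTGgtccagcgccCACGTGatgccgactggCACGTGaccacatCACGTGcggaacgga
Igf2r, chr17:12769707-12769816, minus strand: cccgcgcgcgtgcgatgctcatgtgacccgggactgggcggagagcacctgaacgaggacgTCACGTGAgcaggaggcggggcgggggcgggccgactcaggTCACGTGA
Mcoln1, chr8:3500409-3500518, plus strand: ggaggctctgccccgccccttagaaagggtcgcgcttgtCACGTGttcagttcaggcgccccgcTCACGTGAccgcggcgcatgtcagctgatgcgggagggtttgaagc
Gla, chrX:134601136-134601245, minus strand: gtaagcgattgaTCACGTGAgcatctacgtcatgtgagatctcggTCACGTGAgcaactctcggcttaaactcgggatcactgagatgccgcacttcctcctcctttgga

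Many lysosome genes were lower after LPS in vehicle-treated macrophages, as were 3 of the 7 macrophage markers, whose part in the result was not tested. At a limma adjusted p of at most 0.05, 44 of the 106 tested members were lower in LPS than in NC (41.5%) and 0 were higher, beside 19.8% lower and 9.84% higher among all tested genes. When a change of 2-fold or more was required too, 9 of the 106 members were lower and 0 higher. Among all tested genes these shares were 6.68% lower and 5.55% higher. The study set the same 2 cut-offs on DESeq2 results, which is a different test. At an unadjusted limma p under 0.05, 3 members were higher and 59 lower, beside 5017 of 12189 tested genes in either direction. The median member changed by -0.31 on the log2 scale, where the median tested gene changed by -0.17, and 93 members were below 0. With each sample centred on its median gene, the member median was -0.15, with 16 members lower and 7 higher at the adjusted p. With the 2-fold change as well, 5 members were lower after centring, beside 530 of 12189 tested genes. For this and the other alternative fits, in all comparisons, the share of all tested genes at the adjusted p alone was not computed. Without NC replicate 1 there were 34 lower and 4 higher, and with quantile normalization 42 lower and 3 higher. The count of 44 lower members fell to 19 without LPS replicate 1, to 15 without LPS replicate 2 and to 13 when only the LPS and NC samples were fitted. The count of 9 fell to 5 without NC replicate 1, and 1 member passed both thresholds as higher without LPS replicate 1. Of the 44, Arsg, Gga2, Hyal1, Lipa, Nagpa, Pla2g15, Sgsh and Smpd1 passed the adjusted p in all alternative fits that were run, and the other 36 did not.

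The sulfatase Sgsh, which removes sulfate from heparan sulfate, showed the largest fall. Its level was 12.9 and 10.9 TPM in NC and 1.71 and 1.54 TPM in LPS, so that the LPS mean was 0.137 of the NC mean. Its log2 change was -2.29 (SE 0.18, limma adjusted p = 0.000172). In the C498 samples it stood at 7.44 and 7.43 TPM and in the C498_LPS samples at 1.73 and 1.63 TPM, so the LPS-treated samples of both groups were far below the samples without LPS. Of the exon bases of Sgsh, 21.6% overlap Card14 on the opposite strand in GENCODE M21, and the strand setting of the counting is not given in the sources used here.

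Pla2g15, a phospholipase of the lysosomal lumen, fell almost as far. It had 64.3 and 61.3 TPM in NC, 13.4 and 12.6 in LPS, 37.8 and 44.7 in C498, and 14.2 and 13.3 in C498_LPS. The LPS samples were at 0.207 of NC (log2 change -2.19, SE 0.12, limma adjusted p = 4.34e-05). Sgsh and Pla2g15 passed both thresholds in LPS against NC under all alternative fits that were run, leaving out each sample included.

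Arylsulfatase G (Arsg), a further sulfatase of heparan sulfate breakdown, had 6.68 and 5.05 TPM in NC, 0.89 and 1.02 in LPS, 2.83 and 2.88 in C498, and 1.19 and 1.01 in C498_LPS. Its log2 change with LPS was -1.80 (SE 0.22, adjusted p = 0.0013 by limma). The hyaluronidase Hyal1 had 6.27 and 4.38 TPM in NC, 1.17 and 1.07 in LPS, 6.94 and 6.98 in C498, and 1.45 and 1.93 in C498_LPS, with a log2 change of -1.56 with LPS (SE 0.22, adjusted p = 0.0026 by limma). For both genes the LPS and NC samples were far apart, and the low levels keep the log2(TPM + 1) change smaller than the ratio of means, which was 0.163 for Arsg and 0.210 for Hyal1. Of the exon bases of Hyal1, 50.8% are shared with Naa80 on the same strand, so its reads cannot be fully told apart from those of Naa80.

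Lipa, the acid lipase that frees cholesterol from its esters, was the most abundant of the genes that passed both thresholds. It had 591 and 432 TPM in NC, 251 and 242 in LPS, 467 and 448 in C498, and 264 and 218 in C498_LPS. Its log2 change with LPS was -1.03 (SE 0.16, adjusted p = 0.00325 by limma). The galactosylceramidase Galc was at 60.2 and 41.1 TPM in NC and 23.9 and 23.6 in LPS (log2 change -1.04, SE 0.18, adjusted p = 0.00532 by limma). The sialic acid exporter Slc17a5 was at 22.7 and 14.5 TPM in NC and 8.09 and 7.14 in LPS (log2 change -1.16, SE 0.23, adjusted p = 0.00898 by limma), a call lost without LPS replicate 2. The Golgi adaptor Gga2, which loads mannose 6-phosphate receptors into carriers, was at 38.8 and 40.4 TPM in NC and 19.5 and 18.3 in LPS (log2 change -1.03, SE 0.12, adjusted p = 0.00118 by limma). In none of these 4 genes did the LPS and NC samples overlap, and both LPS samples lay below both NC samples in 42.2% of all tested genes.

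The nucleotide phosphatase Entpd4b was the ninth gene past both thresholds, but its reads are not separable from those of its near-identical copy Entpd4. Entpd4b was at 19.6 and 16.8 TPM in NC and 8.65 and 3.92 in LPS, while Entpd4 was at 0.84 and 1.10 in NC and 1.08 and 6.41 in LPS. The sum of both was 20.4 and 17.9 TPM in NC, 9.73 and 10.3 in LPS, 14.7 and 17.6 in C498, and 9.40 and 11.2 in C498_LPS. The Entpd4b call was kept in 11 of 16 alternative fits and was lost when either NC sample or LPS replicate 2 was left out.

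**Figure D2:**
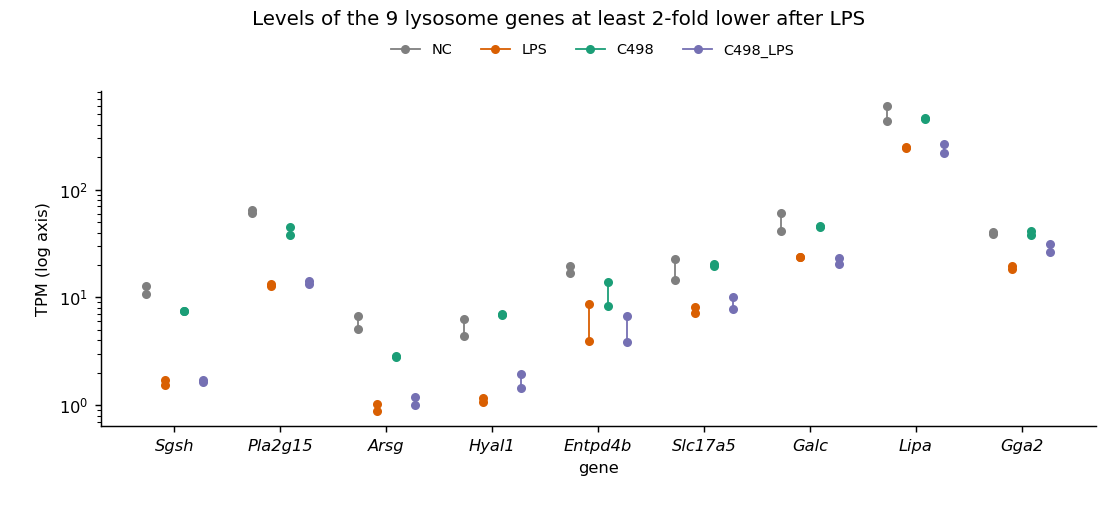
Levels (TPM, log axis) of the 9 lysosome genes that were at least 2-fold lower in LPS than in NC at a limma adjusted p of at most 0.05, with both samples of each group as joined points. Each gene's LPS samples lie below its NC samples, and Sgsh and Pla2g15 are as low in C498_LPS (1.63 to 1.73 and 13.3 to 14.2 TPM) as in LPS.

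The counts by role stand beside 19.8% of all tested genes called lower, 9.84% called higher and 7672 of 12189 below 0 in this comparison. All 19 tested glycosidases were below 0, with a median log2 change of -0.41, and 12 of them passed the adjusted p. Besides Hyal1 and Galc these included the hexosaminidase subunit Hexa, at 1050 and 1043 TPM in NC and 831 and 831 in LPS, and the beta-glucuronidase Gusb, at 575 and 481 in NC and 401 and 392 in LPS, with calls kept in 11 and 7 of 16 alternative fits. With centring on the median gene, 18 of the 19 glycosidases remained below 0 and 3 passed the adjusted p.

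All 8 lipid enzymes and activators were below 0 with LPS as well, with a median of -0.44, and 5 passed the adjusted p. After centring 7 of the 8 were below 0 and 3 passed. Psap was at 11120 and 9615 TPM in NC and 8181 and 7707 in LPS (log2 change -0.38, adjusted p = 0.0427 by limma), a call kept in 6 of 16 alternative fits. Acid sphingomyelinase (Smpd1) was at 37.8 and 37.8 TPM in NC and 21.9 and 19.5 in LPS (log2 change -0.84, SE 0.11, adjusted p = 0.00177 by limma), a call that no alternative removed. The ceramidase Asah1 was at 236 and 183 TPM in NC and 174 and 160 in LPS and did not pass. The 8 sulfatase genes, with the sulfatase-activating enzyme Sumf1 among them, had a median of -0.39 and 4 of them passed the adjusted p, or 2 after centring. The sulfatase Galns did not pass (log2 change -0.30, SE 0.11, adjusted p = 0.0871 by limma).

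Proteases included the most abundant members. The median of the 15 tested proteases was -0.18, close to the -0.17 of all tested genes, and it was -0.01 after centring. Of the 15, 4 were lower at the adjusted p, and after centring 0 were lower and 1 higher. Ctsd was at 11370 and 12220 TPM in NC and 8323 and 8677 in LPS (log2 change -0.47, SE 0.09, adjusted p = 0.00996 by limma), a call kept in 10 of 16 alternative fits. Of the exon bases of Ctsd, 34.4% are shared with Gm49369 on the same strand. Legumain (Lgmn), an asparaginyl endopeptidase that processes cathepsins, was at 997 and 997 TPM in NC and 668 and 656 in LPS (log2 change -0.59, SE 0.07, adjusted p = 0.00134 by limma). Ctsk passed with a change of -0.31, from 541 and 499 TPM to 426 and 409, a call kept in 7 of 16 alternative fits. Ctss, with 7827 and 7525 TPM in NC and 6367 and 6317 in LPS, and Ctsb, with 6388 and 7018 in NC and 5653 and 5628 in LPS, were separate between the groups and did not pass (adjusted p = 0.060 and 0.0805 by limma). Ctsz and Ctsl overlapped between the groups, with Ctsl at 2497 and 2375 TPM in NC and 2446 and 2383 in LPS.

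Among the 10 membrane glycoproteins, 4 were lower at the adjusted p with LPS and the median was -0.27, and after centring 0 were lower and 1 higher, with a median of -0.10. Laptm5, a lysosomal membrane protein of blood cells, was at 801 and 752 TPM in NC and 541 and 505 in LPS (log2 change -0.57, SE 0.11, adjusted p = 0.00742 by limma). The markers of the organelle gave smaller differences that did not pass: Lamp1 was at 2115 and 1957 TPM in NC and 1706 and 1693 in LPS, Lamp2 at 426 and 336 in NC and 378 and 336 in LPS, Cd63 at 2004 and 2317 in NC and 1877 and 2050 in LPS, and Cd68 at 2913 and 2669 in NC and 2558 and 2419 in LPS. Of the 12 transporters and channels, 3 were lower at the adjusted p, near the share of all tested genes. Their median of -0.16 became 0.01 after centring, with 3 lower and 2 higher. The cholesterol exporter Npc1 was one of these, at 191 and 135 TPM in NC and 97.6 and 80.9 in LPS, while its partner Npc2 was at 3196 and 3388 against 3153 and 3033. Mcoln1, with 120 and 106 TPM in NC and 92.8 and 82.9 in LPS, did not pass.

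Nagpa, the enzyme that uncovers the mannose 6-phosphate tag, was at 91.7 and 90.2 TPM in NC and 54.5 and 57.6 in LPS (log2 change -0.69, SE 0.10, adjusted p = 0.0023 by limma), and it passed under all alternative fits that were run. The small mannose 6-phosphate receptor M6pr was at 291 and 252 TPM in NC and 320 and 290 in LPS, and the large one, Igf2r, at 92.0 and 44.4 in NC and 56.8 and 44.3 in LPS, both overlapping. Of 23 coat genes, 8 were lower and 0 higher at the adjusted p, with a median of -0.27, against 3 lower and 2 higher after centring and 5 lower and 2 higher with quantile normalization. Clathrin light chain Clta was at 548 and 616 TPM in NC and 432 and 490 in LPS, and the adaptor subunit Ap3s1 at 225 and 227 in NC and 172 and 176 in LPS, and both passed, with calls kept in 5 and 12 of 16 alternative fits. The adaptor subunit Ap1s1 did not pass, with 169 and 185 TPM in NC and 160 and 154 in LPS. Of the 5 nucleases and phosphatases, Dnase2a fell from 132 and 158 TPM to 99.0 and 98.1 (adjusted p = 0.0125 by limma), and the tartrate-resistant phosphatase Acp5 had 441 and 462 TPM in NC and 522 and 580 in LPS without passing the test (adjusted p = 0.0864 by limma).

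**Figure D3:**
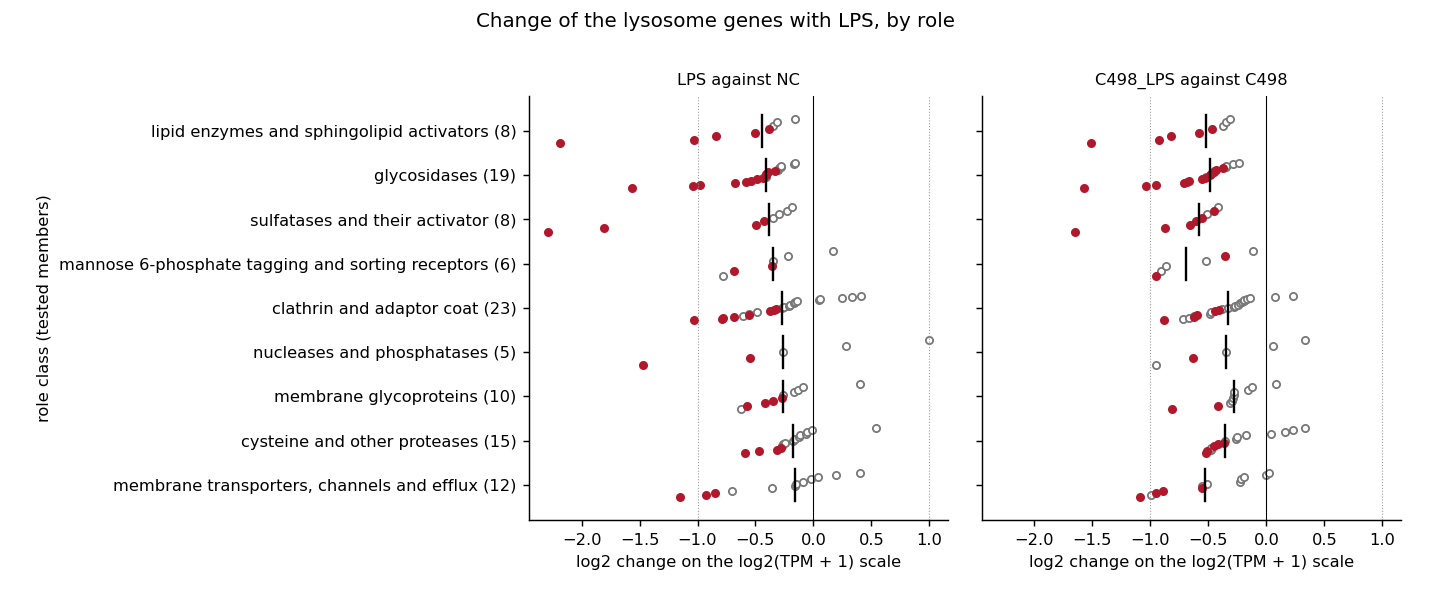
Log2 change with LPS on the log2(TPM + 1) scale for the 106 tested lysosome genes by role class, without C498 (left) and with C498 (right), with class medians as black bars, dotted lines at 2-fold, and filled points for a limma adjusted p of at most 0.05. All 19 glycosidases and all 8 lipid enzyme genes lie below 0 in both panels, and the class medians nearest to 0 in the left panel are those of the transporters (-0.16) and proteases (-0.18).

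In macrophages that had received C498, many lysosome genes were lower with LPS too, beside 4 of the 7 macrophage markers, whose part was not tested. At the adjusted p, 43 of 106 members were lower in C498_LPS than in C498 (40.6%) and 0 were higher, beside 11.7% lower and 4.51% higher among all tested genes. With the 2-fold threshold as well, 5 of the 106 members were lower and 0 higher, beside 3.13% and 2.52% of all tested genes. At an unadjusted limma p under 0.05, 2 members were higher and 76 lower, beside 3886 of 12189 tested genes in either direction. The member median was -0.44 where the median tested gene was at -0.18, and it was -0.22 after centring, with 15 members lower and 1 higher at the adjusted p. The count of 43 depended on every sample: it was 9 and 6 without C498 replicates 1 and 2, 23 and 9 without C498_LPS replicates 1 and 2, 25 and 27 without LPS replicates 1 and 2, and 65 and 66 without NC replicates 1 and 2, since all 8 samples share the estimate of the spread. The count of 5 became 2 and 3 without C498 replicates 1 and 2 and 3 without C498_LPS replicate 2.

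The 5 genes past both thresholds were Sgsh (log2 change -1.65, SE 0.18), Hyal1 (-1.57, SE 0.22), Pla2g15 (-1.51, SE 0.12), Slc17a5 (-1.09, SE 0.23) and Galc (-1.04, SE 0.18), with limma adjusted p-values of 0.00165, 0.00522, 0.00052, 0.0201 and 0.0105. Each of them was also among the 9 of LPS against NC, which compares other samples, though both come from a fit that shares 1 estimate of the spread. At the adjusted p alone, 31 members were lower in both, which is 70.5% of the 44 and 72.1% of the 43. Among all tested genes, the genes lower in both were 47.4% of those lower without C498 and 79.8% of those lower with it. Across the 106 members, the LPS changes without and with C498 correlated with Pearson's r of 0.826 and Spearman's rho of 0.738, against a Pearson's r of 0.657 across all tested genes. Genes are not independent replicates and the correlation is a description. Lipa reached -0.93 (SE 0.16, adjusted p = 0.0102 by limma), Smpd1 -0.82 and Nagpa -0.95, the last from 67.6 and 61.8 TPM to 32.4 and 33.6. Laptm5 fell from 758 and 822 TPM to 491 and 412, a log2 change of -0.81 (adjusted p = 0.00384 by limma).

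By role, 13 of 19 glycosidases, 6 of 8 sulfatase genes, 5 of 8 lipid enzyme genes, 5 of 15 proteases, 5 of 23 coat genes, 4 of 12 transporters, 2 of 10 membrane glycoproteins, 2 of 6 tagging and sorting genes and 1 of 5 nucleases and phosphatases were lower in C498_LPS than in C498 at the adjusted p, beside 11.7% of all tested genes. After centring these counts were 4 glycosidases, 1 sulfatase gene, 3 lipid enzyme genes, 0 proteases with 1 higher, 1 coat gene, 3 transporters, 1 membrane glycoprotein, 1 tagging and sorting gene and 1 of the nucleases and phosphatases. Gga2 stood at 37.9 and 41.1 TPM in C498 and 31.3 and 26.6 in C498_LPS, a log2 change of -0.44 (adjusted p = 0.0498 by limma) beside -1.03 without C498, and this call was kept in 4 of 16 alternative fits.

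The interaction term, which compares the LPS change with C498 to that without, passed for no lysosome gene. At the adjusted p, 0 members were higher and 0 lower by limma, with or without the 2-fold threshold, beside 0.0738% higher and 0.418% lower of all tested genes at the adjusted p and 0.0738% and 0.394% with the threshold. At an unadjusted limma p under 0.05 there were 4 members higher and 4 lower, beside 1351 of 12189 tested genes in either direction. The lowest adjusted p among the members was that of Pla2g15 (interaction 0.68, SE 0.18, adjusted p = 0.217 by limma), followed by Gga2 (0.59, SE 0.17, adjusted p = 0.287). A missed threshold with 2 samples a group does not show that the responses were alike.

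With C498 alone, few lysosome genes passed the test. At the adjusted p, 7 of 106 members were lower in C498 than in NC (6.60%) and 1 was higher (0.943%), beside 6.19% lower and 9.29% higher among all tested genes. No member passed the 2-fold threshold as well, with 0 higher and 0 lower by limma beside 5.64% and 1.36% of all tested genes. At an unadjusted limma p under 0.05, 3 members were higher and 17 lower, beside 3898 of 12189 tested genes in either direction. The member median was -0.08, where the median tested gene was at 0.01, and it was -0.20 after centring and 0.01 without NC replicate 1. The 8 calls became 5 lower and 6 higher without NC replicate 1, 0 when either C498 sample was left out, 0 when only the NC and C498 samples were fitted, and 5 when either C498_LPS sample was left out, and 1 member passed both thresholds as higher when either LPS sample was left out. In the same comparison 5 of 5 tested fibroblast markers, 2 of 4 mesothelial markers and 1 of 2 dendritic cell markers were higher, and 2 of 7 macrophage and 2 of 4 neutrophil markers lower, at the adjusted p, and their part in these differences was not tested.

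Acp2, the lysosomal acid phosphatase, was at 98.7 and 84.4 TPM in NC and 61.2 and 60.1 in C498 (log2 change -0.58, SE 0.12, adjusted p = 0.0187 by limma). Nagpa was at 91.7 and 90.2 TPM in NC and 67.6 and 61.8 in C498 (log2 change -0.49, SE 0.10, adjusted p = 0.0183 by limma). Pla2g15, at 64.3 and 61.3 TPM in NC, had 37.8 and 44.7 in C498 (log2 change -0.60, SE 0.12, adjusted p = 0.0213 by limma). In these 3 genes both C498 samples lay below both NC samples, as in 28.4% of all tested genes, and they lost the call when either C498 sample was left out or when the NC and C498 samples alone were fitted.

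Cln3, a lysosomal membrane protein, was at 124 and 145 TPM in NC and 91.0 and 90.4 in C498 (log2 change -0.56, SE 0.12, adjusted p = 0.0215 by limma). Arsg and Dnase2a also passed, with log2 changes of -0.82 and -0.44 and adjusted p-values of 0.0453 and 0.0445. The 1 gene that rose was Gla, the alpha-galactosidase whose promoter stretch above holds a pair of TCACGTGA sites, from 171 and 158 TPM in NC to 216 and 217 in C498 (log2 change 0.39, SE 0.08, adjusted p = 0.0204 by limma). After centring, Gla no longer passed. The cathepsins with the highest levels did not pass the test, with Ctsd at 10670 and 11000 TPM in C498, Ctss at 7608 and 7026 and Ctsb at 6483 and 7080.

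In LPS-treated macrophages 18 members passed the adjusted p with C498. Of the 106 tested members, 14 were lower in C498_LPS than in LPS (13.2%) and 4 were higher (3.77%), beside 7.70% lower and 9.08% higher among all tested genes. With the 2-fold threshold, 0 members were lower and 0 higher by limma, beside 2.18% and 5.39% of all tested genes. At an unadjusted limma p under 0.05, 23 members were lower and 4 higher, beside 3797 of 12189 tested genes in either direction. The member median was -0.16, where the median tested gene was at 0.01, and it was -0.23 after centring and -0.08 without C498_LPS replicate 2. The 18 calls fell to 2 and 3 without LPS replicates 1 and 2, to 9 and 4 without C498_LPS replicates 1 and 2, to 7 when either C498 sample was left out and to 9 when only the LPS and C498_LPS samples were fitted, and rose to 21 when either NC sample was left out. With the 2-fold threshold, 1 member was lower without C498_LPS replicate 1. In the same comparison 4 of 5 tested fibroblast, 2 of 4 mesothelial and 2 of 2 dendritic cell markers were higher, 2 of 4 neutrophil markers were lower, and 4 of 7 macrophage markers were lower and 1 higher, and their part was not tested.

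Acp2 had the largest fall here, from 77.9 and 73.6 TPM in LPS to 41.2 and 36.3 in C498_LPS, which is 0.511 of the LPS mean (log2 change -0.95, SE 0.12, adjusted p = 0.00257 by limma). Nagpa went from 54.5 and 57.6 TPM to 32.4 and 33.6 (log2 change -0.74, SE 0.10, adjusted p = 0.00317 by limma). Both passed the adjusted p under all alternative fits that were run, the only members of this comparison that did. Both genes were thus lower with C498 whether or not LPS was present, and their lowest levels of the 4 groups were in C498_LPS. Of the exon bases of Acp2, 12.6% are shared with Ddb2 on the opposite strand.

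Mfsd8, a membrane protein of the transporter family, was at 6.74 and 5.79 TPM in LPS and 3.65 and 2.99 in C498_LPS (log2 change -0.75, SE 0.20, adjusted p = 0.0398 by limma). The thioesterase Ppt2 was at 69.4 and 68.7 TPM in LPS and 45.7 and 38.0 in C498_LPS (log2 change -0.71, SE 0.13, adjusted p = 0.0103 by limma), and 36.6% of its exon bases are shared with Gm20460 on the same strand. The Golgi adaptor Gga1 was at 53.6 and 56.8 TPM in LPS and 35.7 and 33.2 in C498_LPS (log2 change -0.67, SE 0.11, adjusted p = 0.00909 by limma). Slc11a1, the metal transporter of the phagosome that limits growth of ingested bacteria, was at 777 and 647 TPM in LPS and 472 and 438 in C498_LPS (log2 change -0.64, SE 0.12, adjusted p = 0.0122 by limma). The call of Mfsd8 was kept in 7 of 15 alternative fits and was lost when any LPS, C498 or C498_LPS sample was left out. For Ppt2 and Gga1 the calls were lost without either LPS sample and without C498_LPS replicate 2, and for Slc11a1 without LPS replicate 1 and without C498_LPS replicate 2. Cln3 passed again, with a log2 change of -0.54 that kept its call in 10 of 16 alternative fits, so that Acp2, Cln3 and Nagpa were among the members lower with C498 both without and with LPS.

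Ctsl, Gga2, Gla and Laptm4b rose with C498 in LPS-treated cells. Ctsl, whose LPS and NC samples overlapped, went from 2446 and 2383 TPM in LPS to 3508 and 3078 in C498_LPS (log2 change 0.44, SE 0.09, adjusted p = 0.0155 by limma). Gga2, which had fallen with LPS, went from 19.5 and 18.3 TPM to 31.3 and 26.6 (log2 change 0.58, SE 0.12, adjusted p = 0.0185 by limma). Gla went from 124 and 127 TPM to 156 and 154 (log2 change 0.31, SE 0.08, adjusted p = 0.0403 by limma), and Laptm4b from 8.12 and 5.98 to 10.6 and 14.5 (log2 change 0.75, SE 0.21, adjusted p = 0.0492 by limma). In each of the 4 the C498_LPS samples lay above the LPS samples, as they did in 31.9% of all tested genes. After centring none of the 4 passed, with log2 changes of 0.37 for Ctsl, 0.51 for Gga2, 0.23 for Gla and 0.67 for Laptm4b. Of the 8 fits that left out 1 sample, Gga2 passed in 5, Ctsl in 3, Gla in 2 and Laptm4b in 0. Of the exon bases of Ctsl, 26.9% overlap an antisense transcript.

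**Figure D4:**
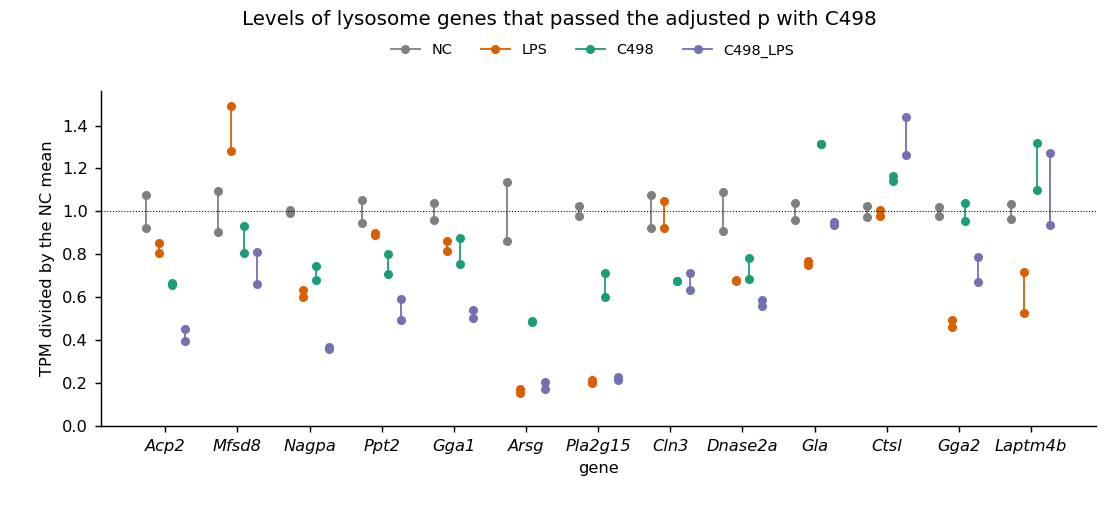
Levels of 13 lysosome genes that passed a limma adjusted p of 0.05 with C498, each sample divided by the gene's NC mean (dotted line at 1), with both samples of each group as joined points. Acp2 and Nagpa fall from NC through LPS or C498 alone to C498_LPS, while Gla is above the NC mean in C498 and Ctsl is highest in C498_LPS.

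By role, of 12 transporters, 5 were lower in C498_LPS than in LPS at the adjusted p, with a class median of -0.25, and 11 of the 12 were below 0, beside 7.70% lower, 9.08% higher and 5943 of 12189 below 0 among all tested genes. Of 19 glycosidases, 3 were lower and 1 higher, of 23 coat genes 3 were lower and 1 higher, and of 15 proteases 0 were lower and 1 higher. Hexa, one of the glycosidases, was at 831 and 831 TPM in LPS and 718 and 652 in C498_LPS (adjusted p = 0.0479 by limma). Of the 9 genes past both thresholds in LPS against NC, Gga2 passed here as higher (0.58), and the other 8 did not pass, with log2 changes from -0.17 for Entpd4b to 0.34 for Hyal1. Across members, the C498 changes without and with LPS correlated with Pearson's r of 0.529 and Spearman's rho of 0.515, against a Pearson's r of 0.576 across all tested genes.

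**Figure D5:**
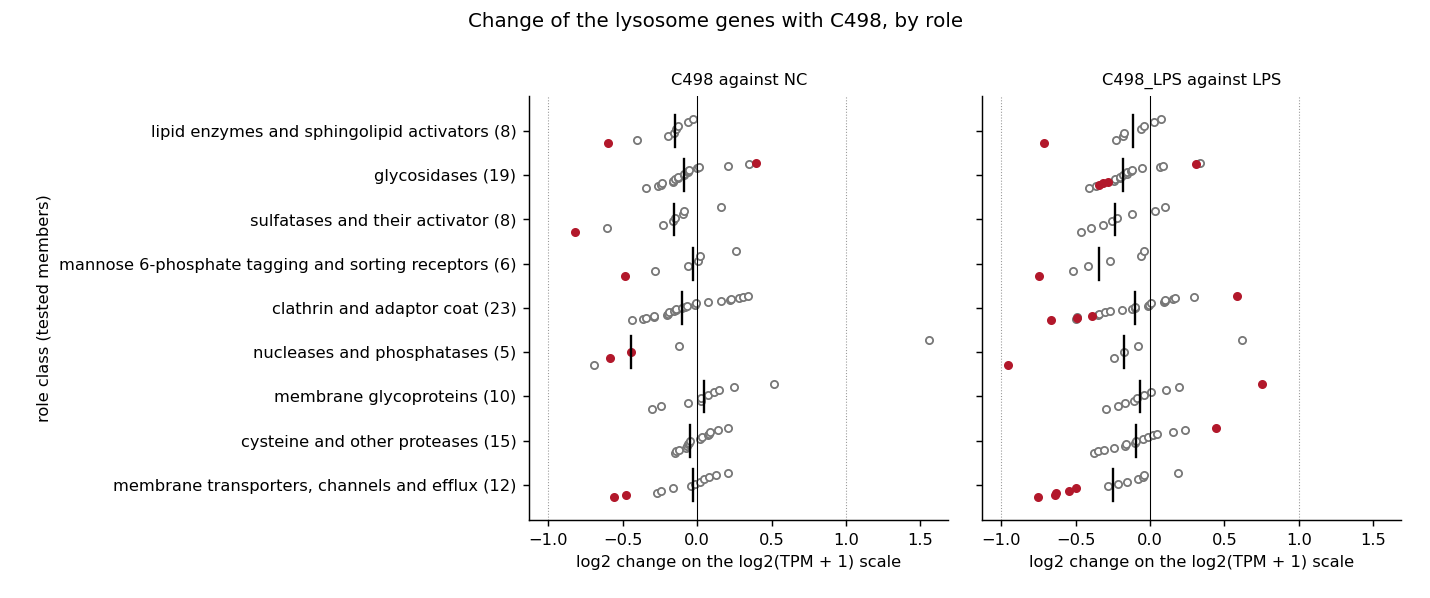
Log2 change with C498 on the log2(TPM + 1) scale for the 106 tested lysosome genes by role class, without LPS (left) and with LPS (right), with class medians as black bars, dotted lines at 2-fold, and filled points for a limma adjusted p of at most 0.05. No filled point passes 2-fold in either panel, and 5 of the 12 transporters are filled on the left of 0 in the right panel.

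Genes that control or neighbour the lysosome were read from lists that hold no member. Of the MiT/TFE factors, Tfeb was at 40.2 and 40.2 TPM in NC, 9.10 and 11.1 in LPS, 20.1 and 24.1 in C498, and 10.4 and 9.90 in C498_LPS. It fell with LPS (log2 change -1.90, SE 0.15, adjusted p = 0.000172 by limma) and with C498 alone (log2 change -0.84, SE 0.15, adjusted p = 0.0121 by limma), and in LPS-treated cells C498 made no further difference that passed. Tfec moved the other way with LPS, from 28.5 and 23.2 TPM to 52.4 and 50.5 (log2 change 0.97, adjusted p = 0.00273 by limma), and was lower with C498, at 16.5 and 16.3 TPM without LPS and 32.7 and 27.4 with it. Tfe3 fell with LPS in C498-treated cells (log2 change -0.76, adjusted p = 0.0103 by limma), from 60.9 and 57.3 TPM to 37.3 and 31.9. Mitf passed in no comparison, with 8.15 to 22.4 TPM over the samples.

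Of the 10 genes that carry both pathway maps, 9 were tested. With LPS 4 of them were lower and 2 higher at the adjusted p, beside 19.8% lower and 9.84% higher of all tested genes. The proton pump subunit Atp6v0a1 went from 139 and 119 TPM to 43.4 and 44.9 (log2 change -1.52, adjusted p = 0.000494 by limma) and Atp6v0d2 from 280 and 204 to 113 and 97.0 (log2 change -1.19, adjusted p = 0.00202 by limma). Atp6v0b and Atp6v1h rose, with log2 changes of 0.32 and 0.39. Of the 14 tested genes of nutrient sensing at the lysosomal surface, 6 were lower with LPS (42.9%, beside the same 19.8%) and 0 higher, Lamtor4 among them from 153 and 182 TPM to 81.0 and 87.6 (log2 change -0.98, adjusted p = 0.000822 by limma).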

How the data were processed

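RNA of 8 peritoneal macrophage samples was sequenced, and the deposited table gave TPM per gene for each sample. Per the labels and methods, the authors used fastp for read filtering, HISAT2 for alignment, StringTie for assembly and RSEM for the TPM estimates. Versions, genome build, annotation and strand setting are not given in the sources used here. The authors' 4 group mean columns were not used. TPM holds no read depth, so no counting error could be given.

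The 12189 genes of 55801 that averaged 1 TPM or more were tested on log2(TPM + 1) with limma 3.58.1 in R 4.3.3, with 1 mean per group, a variance trend, all 8 samples in 1 fit, and Benjamini-Hochberg adjustment over the tested genes. The pseudocount of 1 understates the change of low genes. The script was tested on simulated data. Promoter windows came from RefSeq (GRCm38.p6) and exon overlaps from GENCODE M21.

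Members, classes and lists were chosen with earlier results of these data known, and 6 hyaluronidase genes were added to the glycosidases after the members were seen. Named genes were those past both thresholds, the 3 most abundant of each class, the 5 that rose and the 5 that fell most in each comparison among those at an adjusted p of 0.05 or less, and a list of common lysosomal genes. Smpd1 and other members named outside that rule were chosen after their values were seen. Alternatives were pseudocounts, filters, centring, quantile normalization, fits of the compared groups only, no variance trend, a replicate block and leaving out each sample. Some members that this rule names are not reported here.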

Additional observations from a re-analysis of the deposited data

How the results depend on the processing

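No call of a named lysosome gene turned its direction under the alternatives run. The alternatives were not examined for the other genes named (the MiT/TFE factors, pump subunits and nutrient-sensing genes). Of the medians, that of the members in C498 against NC turned without NC replicate 1, that of the interaction without NC replicate 2, and, after centring, those of the transporters in LPS against NC (-0.16 to 0.01) and of the membrane glycoproteins in C498 against NC (0.05 to -0.07). Centring each sample on its median gene changed the members past both thresholds from 9 to 5 lower in LPS against NC. After centring, 530 of 12189 tested genes were lower past both thresholds in that comparison. The members went from 5 to 3 lower in C498_LPS against C498, beside 196 of 12189 tested genes. They went from 0 to 1 lower in C498_LPS against LPS, beside 335 of 12189 tested genes. In the same order the member medians became -0.15, -0.22 and -0.23, with -0.20 in C498 against NC. Quantile normalization gave 3 members lower, beside 262 of 12189 tested genes, and a member median of -0.36 in C498_LPS against C498. Without a fold threshold, 44 members were lower in LPS against NC, 43 in C498_LPS against C498, 14 lower and 4 higher in C498_LPS against LPS, and 7 lower and 1 higher in C498 against NC.

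Leaving out 1 sample at a time, with the lone sample of its group taken to vary like the others, gave 5 to 13 lower and 0 to 1 higher in LPS against NC (median -0.42 to -0.25), 2 to 5 lower in C498_LPS against C498 (median -0.49 to -0.35), 0 to 1 lower in C498_LPS against LPS (median -0.215 to -0.075), 0 to 1 higher in C498 against NC (median -0.174 to 0.0087), and an interaction median of -0.179 to 0.0011.

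On the log2 scale the summed level became -0.38 (mean of log2 values) and -0.12 (ratio to the median gene) in LPS against NC, -0.46 and -0.13 in C498_LPS against C498, and, as a ratio to the median gene, -0.18 in C498 against NC and -0.20 in C498_LPS against LPS. Leaving out samples gave -0.44 to -0.29 in C498_LPS against C498 and -0.191 to -0.0391 in C498_LPS against LPS.

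The replicate block kept 9 and 5 members past both thresholds in the LPS comparisons and raised the members at the adjusted p from 44 to 56, 8 to 11, 18 to 23 and 43 to 63. Deviations of samples with the same number correlated with r of 0.0397 to 0.168, so the numbers were not taken to pair the samples. Fitting only the compared groups called 13, 0, 9 and 41 members at the adjusted p, of which 13, 0, 9 and 34 were among the calls reported, in LPS against NC, C498 against NC, C498_LPS against LPS and C498_LPS against C498. In the same order, no filter on low values called 35, 5, 9 and 23 members and no variance trend 32, 6, 9 and 28. Read depth is unknown.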
